A study of Mus musculus with 24 samples.

Results

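Tumours grown from CT26 cells that had been cultured with NP1867 were compared between mice given an antibody against PD-1 and mice given an isotype control antibody. The comparison takes 12 of the 24 tumours of the study, 6 in each group, chosen by their sample titles, and covers the 600 of the 750 genes in the table whose log2 value averaged log2 of 20 or more across the 24 tumours. The remaining 12 tumours, from cells cultured with DMSO, entered that average, the shared estimate of spread and the test of whether the response differed.

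CT26 is a mouse colon carcinoma line derived from BALB/c mice, and NP1867 is an inhibitor of PMS2, a subunit of a DNA mismatch repair complex. The anti-PD-1 group (tumours 30, 45, 48, 50, 67 and 78) received 4 doses of 5 mg/kg of the rat antibody RMP1-14 into the peritoneum, and the isotype group (tumours 10, 26, 47, 49, 57 and 74) received the rat antibody 2A3, of the same isotype, on the same schedule. Both groups carry tumours of cells kept for 40 weeks in 0.5 uM NP1867 before subcutaneous injection, so the drug's effect is shared by the 2 groups. Mice were randomised on day 7, when tumours averaged about 50 mm3, and tumours were taken on day 19, 24 hours after the last dose, fixed in formalin and embedded in paraffin. Tumours with volumes close to their group's mean were picked for RNA, so the p-values cover the spread among tumours picked in that way. The cultured cells are 1 line, and no clone or batch is named in the labels. RNA came from whole sections, which hold carcinoma cells, stroma and immune cells together, and a change in a gene can reflect more cells of a type or more RNA per cell, which cannot be told apart.

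PD-1 is a receptor on activated T cells that restrains them when it binds its ligands PD-L1 and PD-L2, and an antibody against it blocks that contact. Activated T cells release interferon-gamma, which acts through its receptor and JAK kinases on neighbouring cells. Among its targets are CIITA, the master activator of MHC class II genes, the parts of the immunoproteasome, the TAP peptide transporter and PD-L1 itself. MHC class II molecules show peptides to CD4 T cells, and MHC class I molecules show them to CD8 T cells.

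Values are log2 of normalised molecule counts as deposited, on which a difference of 1 is a doubling. A second scale subtracts from each tumour its median over the 600 genes, so that a change there is a change relative to the panel's middle gene. Recovered counts summed to between 249656 and 687032 per anti-PD-1 tumour and between 245260 and 429935 per isotype tumour, and 1 tested value in the 12 tumours rested on 3 counts or fewer. The tumours' median log2 values ran from 7.32 to 8.01 under anti-PD-1 and from 6.93 to 7.81 under isotype, a difference of 0.34 between means (7.66 ± 0.26 and 7.32 ± 0.33, SD, n = 6 each, two-sided exact permutation p = 0.0823). Centring removes that 0.34 from every gene's change and also alters each gene's spread. The log2 factors that turn counts into deposited values differed by 0.02 between the groups (exact permutation p = 0.961).

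Isotype tumour 57 stood apart from the rest. Its values correlated with those of the other 11 tumours at a mean r of 0.898, whereas the other tumours' means lay between 0.920 and 0.960. It held the lowest value of Ptprc, the gene of the leukocyte antigen CD45, at 7.80 on the log2 scale. It also held the lowest value among the 12 tumours for 50 of the 72 genes that rose, and the highest centred value for 36 of the 40 genes that fell on the centred scale. At the other end, anti-PD-1 tumour 78 was the highest of the 12 for 45 of the 72 rises.

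On the deposited scale 72 genes rose under anti-PD-1 (12% of the 600 tested) and 2 fell (0.333%), by limma with Benjamini-Hochberg adjustment at 0.05. On the median-centred scale 38 genes rose (6.33%) and 40 fell (6.67%). All 38 centred rises were among the 72, and both deposited falls were among the 40. Each of the 40 centred falls also had a negative change on the deposited scale, 11 of them with an unadjusted limma p below 0.05. That sign was fixed in advance, because the smallest of these falls, -0.38, exceeds in size the shift of 0.34 that centring removes. The sign therefore adds nothing to the centred calls. Over all 600 genes the median change was 0.43 on the deposited scale, with 462 genes positive, and 0.09 on the centred scale, with 331 positive. The split between rises and falls depends on what each tumour is centred on. Quantile normalisation called 23 rises and 32 falls, centring on the mean gave 31 rises and 56 falls, and centring on the median of cell cycle, kinase, apoptosis and trafficking genes gave 85 rises and 2 falls.

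**Figure D1:**
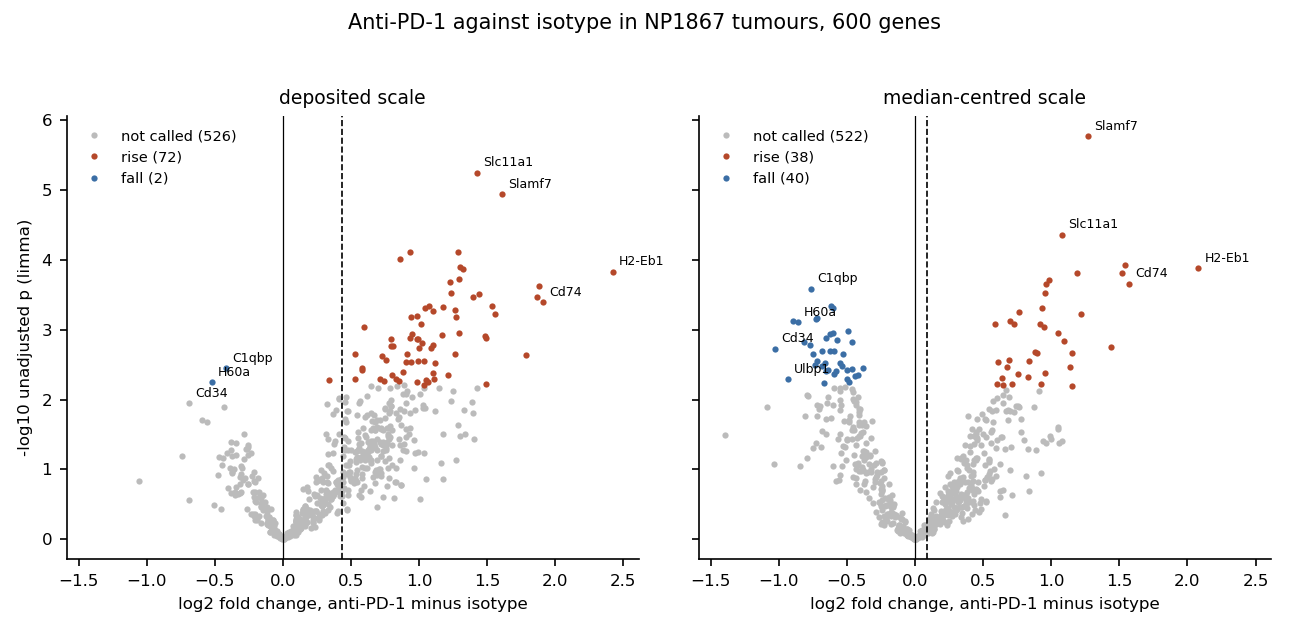
Log2 fold change (anti-PD-1 minus isotype, horizontal) against -log10 of the unadjusted limma p (vertical) for 600 genes on the deposited scale (left) and the median-centred scale (right). Red points are rises, blue points falls at an adjusted p below 0.05, and the dashed line is the median change, 0.43 on the left and 0.09 on the right; the 72 rises and 2 falls on the left become 38 and 40 on the right.

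Single tumours moved these counts by more than 1.5 times. Without isotype tumour 57, 27 rises and 0 falls remained on the deposited scale, and 2 rises and 0 falls on the centred scale (147 and 150 genes at an unadjusted p below 0.05). Without anti-PD-1 tumour 78 there were 14 rises and 0 falls on the deposited scale, and 11 rises and 4 falls after centring. The totals without anti-PD-1 tumours 30 and 45 were 30 and 27 on the deposited scale and 10 and 12 on the centred scale. Without isotype tumours 10 and 49 they were 47 and 39 on the deposited scale and 50 and 51 on the centred scale, and without isotype tumour 26 the centred total was 36. Leaving out isotype tumour 47 raised the totals to 198 and 142. Of the 72 deposited rises, 14 were called with every tumour left out in turn: Ccl4, Cd8a, Csf2rb, Csf3r, H2-Aa, H2-DMa, H2-Eb1, Il12rb1, Irf8, Ltb, Slamf7, Slc11a1, Tap2 and Tpsab1. Under quantile normalisation 4 of these 14 were not called, Ccl4 (0.70, adjusted p = 0.0502), Cd8a (0.73, adjusted p = 0.0609), Tap2 (0.62, adjusted p = 0.0611) and Il12rb1 (0.56, adjusted p = 0.0973). Cd8a and Il12rb1 each lost the deposited call in 2 of 23 settings, quantile normalisation included. Tpsab1 lost it in 1 other setting (limma adjusted p = 0.0564). Of the 38 centred rises, Slamf7 and Slc11a1 were called every time, and of the 40 centred falls none were.

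**Figure D2:**
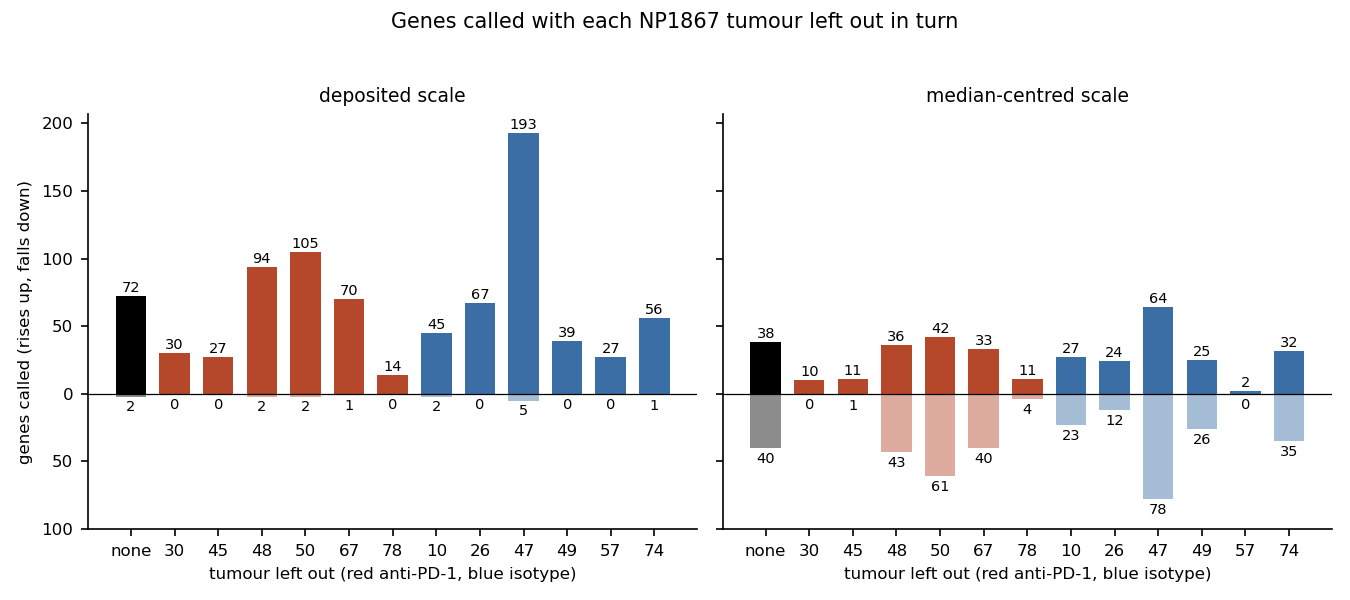
Number of genes called (vertical, rises above 0 in full colour, falls below 0 in pale colour) with no tumour left out (black) and with each anti-PD-1 tumour (red) or isotype tumour (blue) left out, on the deposited scale (left) and the median-centred scale (right). The totals run from 14 to 198 on the left and from 2 to 142 on the right, where the 40 falls become 0 without isotype tumour 57 or anti-PD-1 tumour 30.

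Counts of rises in the families below stand against 12% of all 600 genes on the deposited scale and 6.33% after centring. Genes of MHC class II presentation had the highest median change of the 39 families. Of 11 tested genes of this family 8 rose on the deposited scale, and the same 8 rose after centring, with a family median of 1.49 (1.15 centred) against 0.43 (0.09) for all genes. The 8 comprised the class II chains H2-Eb1, H2-Aa, H2-Ab1 and H2-Ea-ps, the invariant chain Cd74, the peptide-loading chain H2-DMa, the activator Ciita and cathepsin S (Ctss), which trims the invariant chain. Those not called were H2-Ob, a chain of the loading inhibitor DO (0.87, adjusted p = 0.0988), H2-DMb2 (0.69, adjusted p = 0.124) and cathepsin L (Ctsl, 0.08, adjusted p = 0.777). With isotype tumour 57 left out the family's median was 1.24 (0.97 centred), and 5 of the 8 stayed called on the deposited scale and 0 after centring.

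H2-Eb1, a class II beta chain, had log2 values of 11.04, 12.20, 11.49, 11.03, 10.47 and 12.88 in anti-PD-1 tumours 30, 45, 48, 50, 67 and 78, against 8.89, 9.32, 10.33, 9.26, 7.57 and 9.23 in isotype tumours 10, 26, 47, 49, 57 and 74. The lowest anti-PD-1 value, in tumour 67, lay just above the highest isotype value, in tumour 47, so the groups did not overlap. The change was 2.42 ± 0.54 (SE), or 5.35-fold, with an adjusted p of 0.011, and 2.08 after centring (adjusted p = 0.0145). Left out in turn, the 12 tumours gave changes between 2.12 and 2.67 on the deposited scale. On the centred scale the call was lost without isotype tumour 57, with an adjusted p of 0.0529.

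H2-Aa, a class II alpha chain, had values from 11.47 to 13.55 with a median of 12.12 under anti-PD-1 and from 8.82 to 11.95 with a median of 10.38 under isotype. Isotype tumour 47 overlapped the anti-PD-1 range and isotype tumour 57 lay lowest. The change was 1.88 ± 0.44 (SE, adjusted p = 0.0127), between 1.56 and 2.19 with single tumours left out. Cd74, the invariant chain that fills the class II groove until peptide loading, ran from 13.11 to 14.91 with a median of 13.79 under anti-PD-1 and from 10.38 to 13.32 with a median of 11.96 under isotype. Its groups overlapped on the deposited scale and separated after centring, at 5.57 to 6.90 under anti-PD-1 against 3.45 to 5.51 under isotype. The rise of Cd74 was 1.91 ± 0.47 (SE, adjusted p = 0.0144), and without anti-PD-1 tumour 78 its adjusted p was 0.0514.

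Ciita, which switches on class II transcription, was far less abundant in counts, at 5.98 to 7.60 (median 6.49) under anti-PD-1 and 3.86 to 6.05 (median 5.30) under isotype. Only anti-PD-1 tumour 67 fell within the isotype range, and after centring the groups did not overlap. Ciita rose by 1.49 ± 0.41 (SE, adjusted p = 0.0221) on the deposited scale. That call was lost without anti-PD-1 tumours 45 or 78 and without isotype tumours 49 or 57, with changes of 1.24 to 1.67 and adjusted p values up to 0.0765 over all omissions. H2-DMa, which helps exchange the invariant chain remnant for peptide, had a range of 8.33 to 9.83 under anti-PD-1 and of 6.70 to 8.39 under isotype, with 1 isotype tumour, number 47, above the lowest anti-PD-1 tumour. Its change of 1.30 ± 0.29 (SE, adjusted p = 0.011) stayed between 1.12 and 1.46 with single tumours left out. H2-Ea-ps carries the name of a pseudogene in the reference strain, and its probe gave a median of 12.48 under anti-PD-1 and 10.79 under isotype, a rise of 1.78 (adjusted p = 0.0288) that was not called without isotype tumour 57 (0.0931).

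Class II promoters share the X and Y boxes, the first bound by RFX factors and the second by NF-Y, on which CIITA docks. The 120 bases before the start of 4 genes of the family are shown because the same pair of letters occurs in each. Capitals mark CTNNNAAC, which lies where an X box is known in H2-Eb1 and its relatives, and GATTGG, the core of a Y box. The sequences are RefSeq's for GRCm38.p6, written 5′ to 3′ on the gene's strand, from chr17:34305747-34305866 (H2-Eb1, plus strand), chr17:34287824-34287943 (H2-Aa, minus strand), chr17:34238785-34238904 (H2-Ob, plus strand) and chr17:34153071-34153190 (H2-DMb1, plus strand).
H2-Eb1: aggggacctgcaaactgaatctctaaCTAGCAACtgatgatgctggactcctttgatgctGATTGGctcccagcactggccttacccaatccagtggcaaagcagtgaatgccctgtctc
H2-Aa: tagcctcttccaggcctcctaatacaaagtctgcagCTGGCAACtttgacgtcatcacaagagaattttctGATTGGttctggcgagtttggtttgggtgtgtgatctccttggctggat
H2-Ob: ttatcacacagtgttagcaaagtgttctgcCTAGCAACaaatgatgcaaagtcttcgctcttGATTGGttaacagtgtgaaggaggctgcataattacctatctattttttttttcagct
H2-DMb1: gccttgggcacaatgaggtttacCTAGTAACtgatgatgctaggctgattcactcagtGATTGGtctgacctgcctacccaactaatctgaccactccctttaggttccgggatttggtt
Between the 2 stretches lie 26 bases in H2-Eb1, 27 in H2-Aa, 24 in H2-Ob and 27 in H2-DMb1. Searched on both strands, GATTGG occurs in 9.67% and CTNNNAAC in 17.92% of 32851 promoter windows of this length, and the pair in this order on 1 strand, 20 to 40 bases apart, in 0.131% (43 windows). The letters and the gap were chosen after these promoters had been read. The pair is not in the windows of H2-DMa and Ctss, which rose. It is in that of H2-Ob, which did not pass the test. The windows of H2-DMb2 and Ctsl, which were not called, also lack the pair, while H2-Eb1 and H2-Aa carry it and rose. Because the letters were chosen from these promoters, the windows cannot decide whether pair and call go together. Of the other called genes, H2-Ab1, H2-Ea-ps and Ciita had no matched promoter entry, and Cd74 was left out of the windows compared. The search over all windows found the pair in no tested genes besides H2-Eb1, H2-Aa and H2-Ob. The family as a whole cannot be judged. A match is a stretch of letters and not a measured site. H2-DMb1 was below the level filter, and its values lay at 3.72 to 4.94 under anti-PD-1 and 2.36 to 3.64 under isotype without overlap.

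MHC class I presentation moved less. Of 17 tested genes 6 rose on the deposited scale and 2 of them after centring (median 0.58 and 0.24). Those 2 were H2-T23, the non-classical class I molecule read by CD94/NKG2A receptors, which rose by 1.10 (adjusted p = 0.0147), and the immunoproteasome subunit Psmb9, which rose by 0.98 (adjusted p = 0.0154). The other 4 were the immunoproteasome subunit Psmb10, the peptide transporter Tap2, the classical chain H2-K1 and the non-classical H2-M3. Tap2 had values of 9.11 to 10.07 under anti-PD-1, all above the 8.22 to 8.94 of the isotype group, with a rise of 0.86 (adjusted p = 0.011). Its centred change of 0.52 did not pass (adjusted p = 0.0875). H2-D1, the second classical chain, changed by 0.41 (adjusted p = 0.0615), and Tap1 by 0.54 (adjusted p = 0.0786). Class I chains are close in sequence, and how much their probes share was not tested. With isotype tumour 57 left out 3 of the 6 stayed called on the deposited scale, and neither of the 2 on the centred scale.

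**Figure D3:**
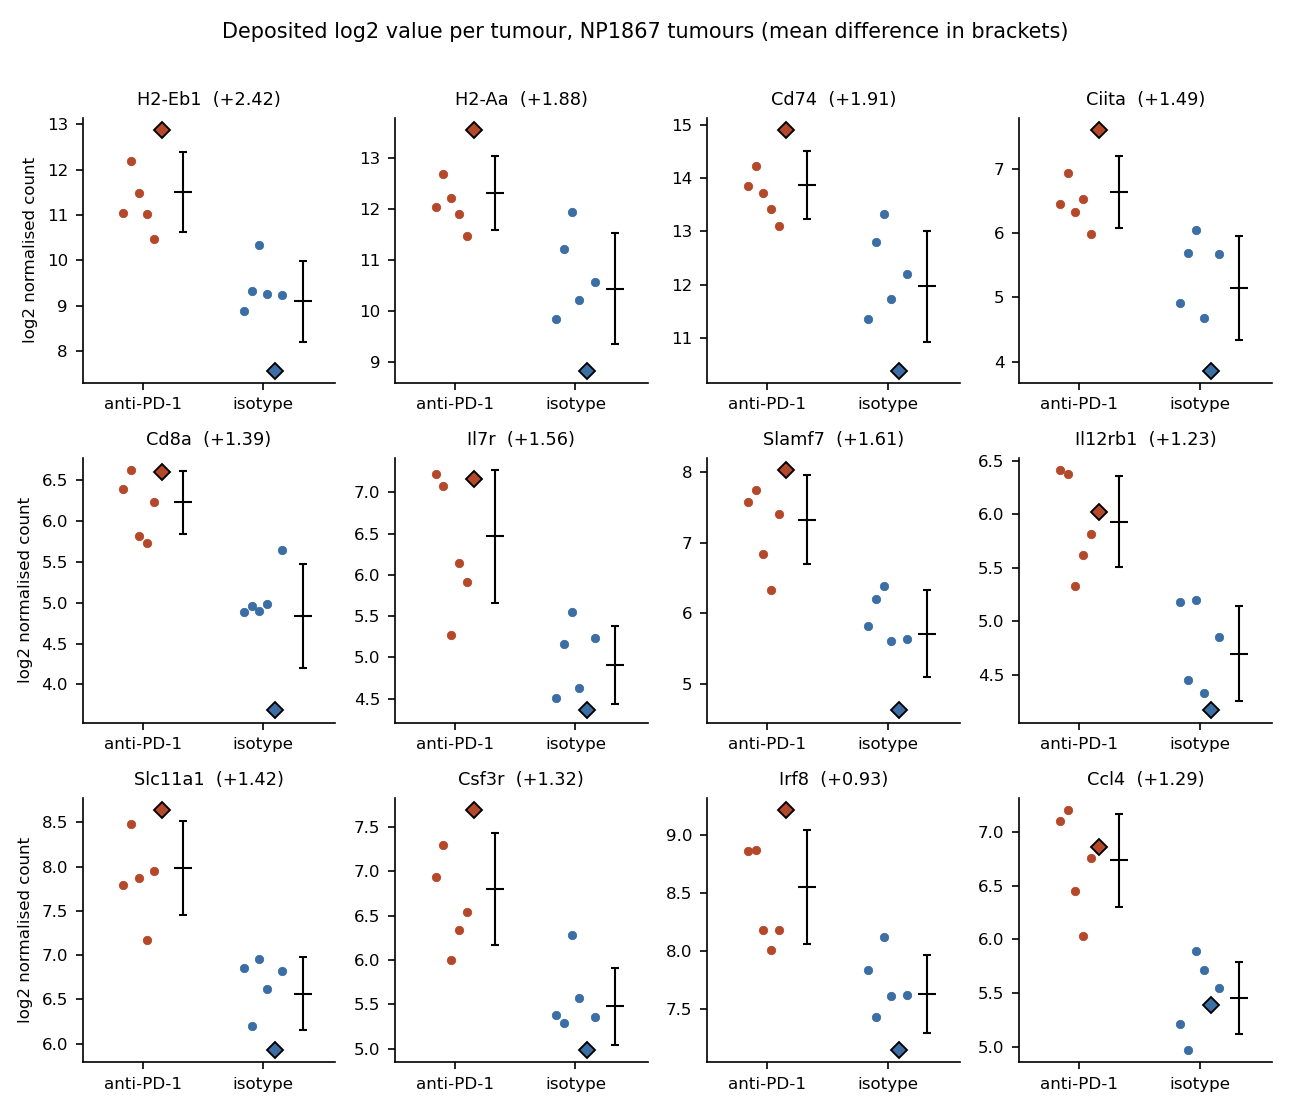
Deposited log2 values (vertical, a separate axis per gene) of 12 genes that rose, in the 6 anti-PD-1 tumours (red, left) and the 6 isotype tumours (blue, right), with mean ± SD in black. Diamonds mark anti-PD-1 tumour 78 and isotype tumour 57; in 11 of the 12 genes tumour 57 is the lowest of all, as in H2-Eb1 at 7.57, and the mean difference is printed above each panel.

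Genes of the T cell receptor complex and its coreceptors rose in 5 of 15 tested cases on the deposited scale and in 4 after centring (median 0.86 and 0.52). Over all genes tested the shares were 12% and 6.33%. With isotype tumour 57 left out the counts were 2 and 0. The 5 rises with all tumours in were the CD3 chains Cd3d, Cd3e and Cd3g, the CD8 coreceptor chain Cd8a and, on the deposited scale alone, the kinase Zap70. Cd8a had values of 6.39, 6.63, 5.82, 5.73, 6.24 and 6.60 in the anti-PD-1 tumours, in the order given above, against 4.88, 4.96, 4.89, 4.99, 3.68 and 5.64 in the isotype tumours. Every anti-PD-1 tumour exceeded every isotype tumour, the closest being anti-PD-1 tumour 50 and isotype tumour 74. Cd8a rose by 1.39 ± 0.33 (SE, adjusted p = 0.0136), and by 1.16 without isotype tumour 57 (adjusted p = 0.0466). Cd3d likewise did not overlap, at 6.44 to 7.60 under anti-PD-1 and 4.77 to 6.38 under isotype, with a rise of 1.26 (adjusted p = 0.0147) that was not called without anti-PD-1 tumour 78 (0.0514). Cd3e and Cd3g rose by 1.10 and 1.03, and without isotype tumour 57 neither passed (adjusted p = 0.124 and 0.105). The summed normalised level of the 8 T cell markers lay between 505 and 957 under anti-PD-1 and between 167 and 541 under isotype. That sum includes Cd3d, Cd3e, Cd3g and Cd8a.

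Receptors of the common gamma chain cytokines, which sustain T and NK cells, rose in 4 of 10 cases (2 centred), against 12% (6.33% centred) of all genes tested. They were Il7r, Il21r, Il2rb and the shared chain Il2rg. Omitting isotype tumour 57 left 1 on the deposited scale and 0 after centring. Il7r, the interleukin 7 receptor, ran from 5.27 to 7.22 (median 6.61) under anti-PD-1 and from 4.36 to 5.55 (median 4.90) under isotype. Its only overlap was anti-PD-1 tumour 48, which lay below isotype tumour 47. The rise was 1.56 ± 0.39 (SE, adjusted p = 0.0154), with an adjusted p of 0.0552 without anti-PD-1 tumour 78. Among T cell transcription factors, Irf4 did not overlap between groups, at 4.73 to 5.85 under anti-PD-1 and 3.10 to 4.19 under isotype. It rose by 1.48 (adjusted p = 0.0221), and the call was lost without anti-PD-1 tumours 30 or 78 or isotype tumour 57 (adjusted p up to 0.0663). Tcf7, a factor of memory-like T cells, rose by 0.98 on the deposited scale (adjusted p = 0.0472), while Nfatc3 and Runx1 fell after centring by 0.65 and 0.73 (adjusted p = 0.0262 and 0.0367).

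In the Th1 family 3 of 15 genes rose on the deposited scale (Ifng, Il12rb1 and Tnf) and Il12rb1 alone after centring, against 1 and 0 without isotype tumour 57. After centring, 1 in 15 is near the 6.33% of all genes tested that rose. Il12rb1, a chain of the receptor for interleukin 12, had values of 6.41, 6.38, 5.33, 5.62, 5.81 and 6.02 in the anti-PD-1 tumours and 5.18, 4.45, 5.19, 4.32, 4.17 and 4.85 in the isotype tumours. The groups did not overlap, though anti-PD-1 tumour 48 and isotype tumours 10 and 47 lay close together. Il12rb1 rose by 1.23 ± 0.29 (SE, adjusted p = 0.0136) on the deposited scale and by 0.89 (adjusted p = 0.0298) on the centred one. Ifng, which encodes interferon-gamma, was near the lower end of measurement, at 4.33 to 5.67 under anti-PD-1 and 3.05 to 4.84 under isotype. Its rise was 1.21 (adjusted p = 0.0443), it lost the call after centring (0.87, adjusted p = 0.0705), and 8 of the 12 omissions ended the deposited call, with adjusted p values up to 0.11. Tbx21, the Th1 transcription factor T-bet, changed by 1.14 (adjusted p = 0.0505).

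The cytotoxic effector genes gave 0 calls in 10 tested genes on either scale, with a median change of 0.74 (0.39 centred). Over all genes tested 12% rose on the deposited scale and 6.33% after centring, so few calls would be due in 10 genes. Granzyme B (Gzmb) had values of 7.35 to 9.60 under anti-PD-1 and 6.41 to 8.51 under isotype, a change of 0.79 ± 0.35 (SE, adjusted p = 0.12). Perforin (Prf1) had 7.56 to 10.41 under anti-PD-1 and 6.84 to 8.91 under isotype, a change of 0.75 (adjusted p = 0.168). The groups overlapped in both genes. The lowest p in the family was that of cathepsin W (Ctsw), with a change of 0.84 and an adjusted p of 0.0503. Foxp3, the regulator of regulatory T cells, changed by 0.22 ± 0.40 (SE, adjusted p = 0.689). Of 7 tested genes in that family only Ctla4 rose, on the deposited scale, which is near the 12% of all genes tested.

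Checkpoint and co-stimulatory genes rose in 8 of 22 cases on the deposited scale and in 3 after centring, against 2 and 0 without isotype tumour 57. The 3 were Pdcd1, which encodes PD-1, its ligand Cd274 (PD-L1) and Lag3, a further inhibitory receptor of T cells. Cd274 ran from 8.57 to 9.85 (median 9.43) under anti-PD-1 and from 7.49 to 8.90 (median 8.11) under isotype, with a rise of 1.07 (adjusted p = 0.0144). Pdcd1 had 5.38 to 6.50 under anti-PD-1 and 4.06 to 5.74 under isotype, a rise of 1.18 (adjusted p = 0.0144). Lag3 did not overlap on either scale, at 5.58 to 6.79 under anti-PD-1 and 4.58 to 5.40 under isotype, a rise of 1.17 (adjusted p = 0.0221). Ctla4, Icos, Cd86, Cd40 and Tnfrsf14 passed on the deposited scale alone, with changes of 0.79 to 1.12. On the deposited scale Pdcd1 and Cd274 stayed called without isotype tumour 57 (adjusted p = 0.0466 for each) and Lag3 did not (0.0626). On the centred scale none of the 3 was called without that tumour (adjusted p = 0.0926 for Pdcd1, 0.0746 for Cd274 and 0.102 for Lag3). On the deposited scale none of the 3 was called without anti-PD-1 tumour 78 (adjusted p = 0.0514, 0.0514 and 0.0721).

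In the interferon-gamma response 7 of 25 genes rose on the deposited scale, 5 of them after centring (Ciita, Cd274, Psmb9, Icam1 and Irf8), and Jak2, the kinase of the interferon-gamma receptor, fell after centring. Without isotype tumour 57 the counts of rises were 4 and 0, and Jak2 was not called. Irf1, an early interferon-gamma target, changed by 0.56 (adjusted p = 0.0662). Type I interferon response genes gave 0 rises in 29 (median 0.31, centred -0.04), and Bst2 and Oas3 changed by 0.47 and 0.68 (adjusted p = 0.129 and 0.105). In that family Ifnar1, a chain of the type I interferon receptor, fell after centring by 0.38 (adjusted p = 0.0376).

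Dendritic cell genes rose in 5 of 12 cases (2 centred), and in 1 (0 centred) without isotype tumour 57. Irf8, a factor needed for cross-presenting dendritic cells and also active in macrophages, had values of 8.86, 8.87, 8.18, 8.01, 8.18 and 9.22 in the anti-PD-1 tumours and 7.83, 7.42, 8.12, 7.61, 7.14 and 7.62 in the isotype tumours. Isotype tumour 47 reached above the lowest anti-PD-1 tumour. Irf8 rose by 0.93 ± 0.20 (SE, adjusted p = 0.011). Xcr1, the chemokine receptor of those dendritic cells, did not overlap (4.99 to 5.63 under anti-PD-1, 3.55 to 4.95 under isotype) and rose by 1.08 on the deposited scale (adjusted p = 0.0257), a call that 6 of the 12 omissions ended. Its centred change was 0.74 with an adjusted p of 0.0697.

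Macrophage genes rose in 6 of 32 cases on the deposited scale (Slc11a1, Abcg1, Apoe, Cybb, Mertk and Trem2), 3 of them after centring. Omitting isotype tumour 57 left 2 of these rises, and 1 after centring. Mrc1 and Ccl12 fell after centring, 2 of 32 against 6.67% of all genes tested, and 0 of 32 fell on the deposited scale or without isotype tumour 57. Slc11a1, which encodes the phagosomal metal transporter NRAMP1, had values of 7.79, 8.49, 7.87, 7.17, 7.95 and 8.65 in the anti-PD-1 tumours and 6.85, 6.20, 6.96, 6.62, 5.92 and 6.82 in the isotype tumours. The groups were apart on both scales, and the rise was 1.42 ± 0.25 (SE, adjusted p = 0.00335), or 1.08 after centring (adjusted p = 0.013). It was 1.29 when isotype tumour 57 was left out (adjusted p = 0.011). Abcg1, a cholesterol exporter of macrophages, rose by 1.53 (adjusted p = 0.0144; 0.0514 without anti-PD-1 tumour 78), and Apoe, a lipid carrier, by 1.49 (adjusted p = 0.0492), with Apoe's adjusted p at 0.126 without isotype tumour 57. The summed level of 6 macrophage markers overlapped widely, at 2984 to 8034 under anti-PD-1 and 3184 to 7616 under isotype.

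Slamf7, a self-binding receptor on NK cells, activated T cells and myeloid cells, had values of 7.58, 7.74, 6.84, 6.34, 7.41 and 8.03 in the anti-PD-1 tumours and 5.83, 6.20, 6.38, 5.62, 4.63 and 5.64 in the isotype tumours. On this scale anti-PD-1 tumour 50 lay just below isotype tumour 47, and after centring the groups were apart, at -0.98 to 0.02 under anti-PD-1 and -2.30 to -1.21 under isotype. The rise was 1.61 ± 0.29 (SE, adjusted p = 0.00338), or 1.27 ± 0.21 centred (adjusted p = 0.00101). With isotype tumour 57 left out it was 1.39 (adjusted p = 0.011), or 1.13 centred (adjusted p = 0.00381). The family of SLAM receptors and leukocyte adhesion gave 7 rises in 20 (12% over all genes tested), among them Cd97, Selplg, Itgal, Itgb2 and Icam1, and 5 after centring (6.33% over all genes). These counts were 2 and 1 without isotype tumour 57.

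Among receptors of colony-stimulating factors, Csf3r, Csf2rb and Il3ra rose on both scales, out of 8 tested genes of the family. On the deposited scale 2 of the 3 stayed called without isotype tumour 57, and on the centred scale 0. Csf3r, the receptor for the neutrophil growth factor G-CSF, had values of 6.00 to 7.70 (median 6.74) under anti-PD-1 and 4.98 to 6.28 (median 5.37) under isotype. The overlap came from isotype tumour 47 and anti-PD-1 tumour 48. The rise of Csf3r was 1.32 ± 0.29 (SE, adjusted p = 0.011), and that of Csf2rb, the beta chain shared by GM-CSF, interleukin 3 and interleukin 5 receptors, was 1.22 (adjusted p = 0.0125). Csf1, the macrophage growth factor, had a negative change that was not called (-0.26, adjusted p = 0.272; -0.60 centred, adjusted p = 0.0503). The mast cell proteases Tpsab1 (tryptase) and Cma1 (chymase) rose by 1.44 and 1.11 (adjusted p = 0.0136 and 0.047), and Cma1 was not called without isotype tumour 57 (adjusted p = 0.132).

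Of 18 tested monocyte and neutrophil attracting chemokine genes 1 rose on the deposited scale, Ccl4. Of 19 T cell attracting chemokine and receptor genes 2 rose, Ccl4 and Xcr1. Of 11 lymphotoxin and lymphoid-tissue genes 1 rose, Ltb. These shares are near or below the 12% of all genes tested. Ccl4, which draws T cells and monocytes, had 6.04 to 7.21 under anti-PD-1 and 4.96 to 5.89 under isotype. The groups were apart on both scales, and Ccl4 rose by 1.29 ± 0.27 (SE, adjusted p = 0.011). Lymphotoxin beta (Ltb), a lymphocyte cytokine that shapes lymphoid tissue, had 7.30 to 8.46 under anti-PD-1 and 5.68 to 7.59 under isotype, a rise of 1.29 (adjusted p = 0.0124). B cell and plasma cell genes gave 0 calls in 17. Natural killer receptor genes gave 2 in 15, Slamf7 and Il21r, which on the deposited scale is near the 12% of all genes tested that rose. The inhibitory receptor Klrc1 (NKG2A) changed by 1.03 (adjusted p = 0.0505).

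Over all 600 genes, 23 (3.83%) had all anti-PD-1 tumours above all isotype tumours on the deposited scale, and 18 (3%) did so after centring. In the other direction C1qbp and Cd34 were apart on the deposited scale, and 9 genes (1.5%) were apart after centring. Those 9 included Itgb1, Ccl12, Ifnar1, Smad4, Jak2 and Ythdf2, for which the centred values of all 6 anti-PD-1 tumours lay below those of all 6 isotype tumours. None of these named genes kept its centred call without isotype tumour 57 (limma adjusted p = 0.0746 to 0.118). The deposited values of these genes overlapped.

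Centred falls made up 6.67% of all genes tested, and 9 of the 40 were in none of the families. MAP kinases and CREB/ATF factors held 6 of the 40 centred falls in 31 tested genes, among them Mapk8, Atf2, Creb1 and the histone acetyltransferases Crebbp and Ep300, with a median change of -0.04 on the deposited scale and -0.39 after centring. Carcinoma and epithelial genes held 3 in 30 (median -0.09 and -0.43), proliferation genes 2 in 10 (-0.14 and -0.48), DNA damage and apoptosis genes 2 in 19 (-0.03 and -0.37), and blood vessel genes 2 in 21 (0.01 and -0.34). None of these 5 families held a rise on either scale. Other families held both, the NF-kB and Tnf pathway with 3 centred falls beside 4 deposited rises, vesicle trafficking with 3 beside 2, macrophage genes with 2 beside 6 and T cell transcription factors with 2 beside 2. Over all 40 falls the median change was -0.28 on the deposited scale and -0.63 after centring. These medians were -0.30 and -0.56 with isotype tumour 57 left out, when all 40 calls were lost. Adjusted p values of the 40 on the centred scale then lay between 0.0529 (C1qbp) and 0.125 (Ulbp1).

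**Figure D4:**
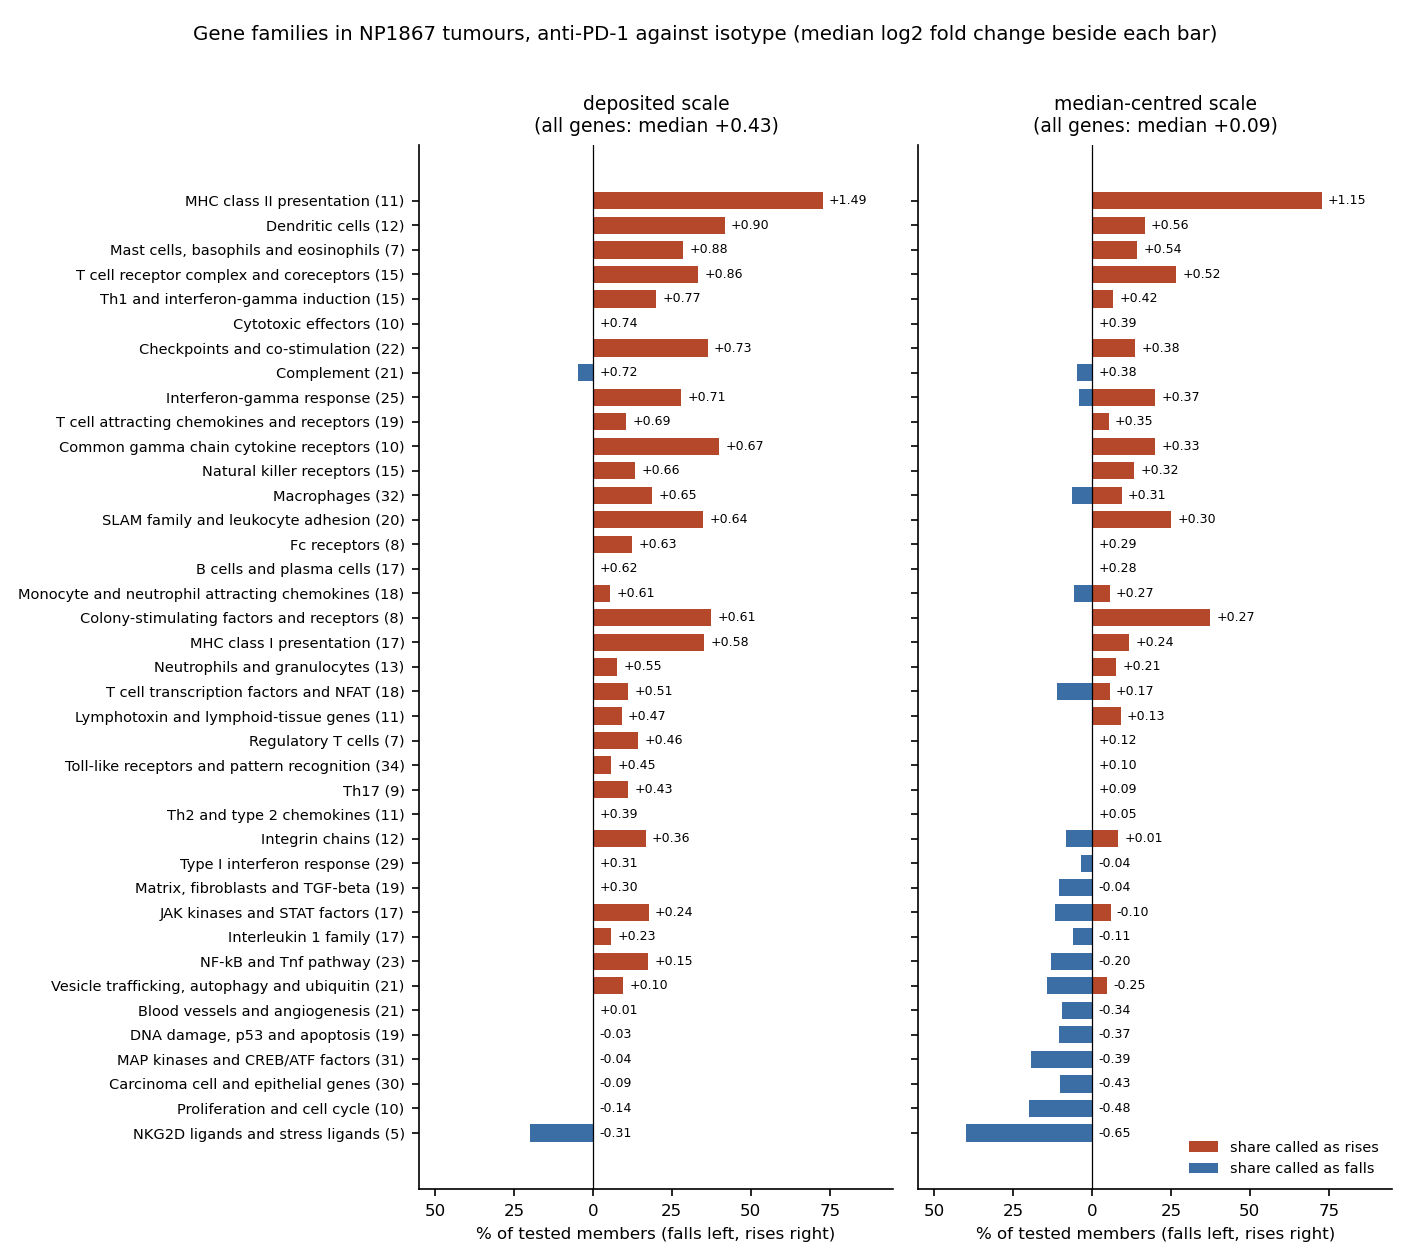
Share of tested members called as rises (red, to the right) and falls (blue, to the left) in each gene family, with the number tested in brackets and the median log2 fold change beside each bar, on the deposited scale (left) and the median-centred scale (right). Families run from MHC class II, with a median of 1.49, at the top to the stress ligands, with -0.31, at the bottom.

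C1qbp and H60a fell on both scales. C1qbp, a mainly mitochondrial protein that also binds the globular heads of complement C1q, had values of 10.51, 10.67, 10.80, 10.69, 10.76 and 10.27 in the anti-PD-1 tumours and 10.89, 11.47, 11.10, 10.89, 10.99 and 10.88 in the isotype tumours. The groups did not overlap, and isotype tumour 26 lay well above the rest. C1qbp fell by 0.42 ± 0.13 (SE, adjusted p = 0.038) on the deposited scale and by 0.76 ± 0.18 (SE, adjusted p = 0.0154) after centring. Leaving out isotype tumour 57 gave -0.43 (adjusted p = 0.0702) and -0.69 (adjusted p = 0.0529). The deposited call was also lost without anti-PD-1 tumours 30, 45 or 78 and isotype tumours 26 or 49 (adjusted p up to 0.111), and the centred call without anti-PD-1 tumour 30 (up to 0.0536). None of the other 20 tested complement genes was called, and C1ra, a protease of the classical pathway, changed by 1.03 (adjusted p = 0.0689).

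H60a encodes a ligand of NKG2D, an activating receptor of NK cells and CD8 T cells that reads stress ligands on target cells. It had 6.51, 7.05, 7.14, 7.18, 7.08 and 6.74 in the anti-PD-1 tumours and 7.19, 8.07, 7.14, 7.27, 7.67 and 7.51 in the isotype tumours. Isotype tumour 47 sat among the anti-PD-1 tumours, and the other isotype tumours lay above the highest of them. H60a fell by 0.52 ± 0.17 (SE, adjusted p = 0.0472) on the deposited scale and by 0.86 (adjusted p = 0.0209) after centring. Ulbp1, a second NKG2D ligand, changed by -0.59 (adjusted p = 0.0868) on the deposited scale and fell by 0.93 (adjusted p = 0.043) after centring. Its centred values ran from -1.17 to -0.13 under anti-PD-1 and from -0.93 to 1.07 under isotype, with isotype tumour 47 again among the anti-PD-1 tumours. The gene of the receptor itself, Klrk1, changed by 0.85 (adjusted p = 0.0856), while Pvr and Pvrl2, ligands of the receptor DNAM-1, changed by -0.31 and 0.04 (adjusted p = 0.241 and 0.867). The deposited call of H60a was lost in 8 of the 12 omissions and the centred one in 4, and without isotype tumour 57 its changes were -0.48 (adjusted p = 0.124) and -0.75 (adjusted p = 0.0746).

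**Figure D5:**
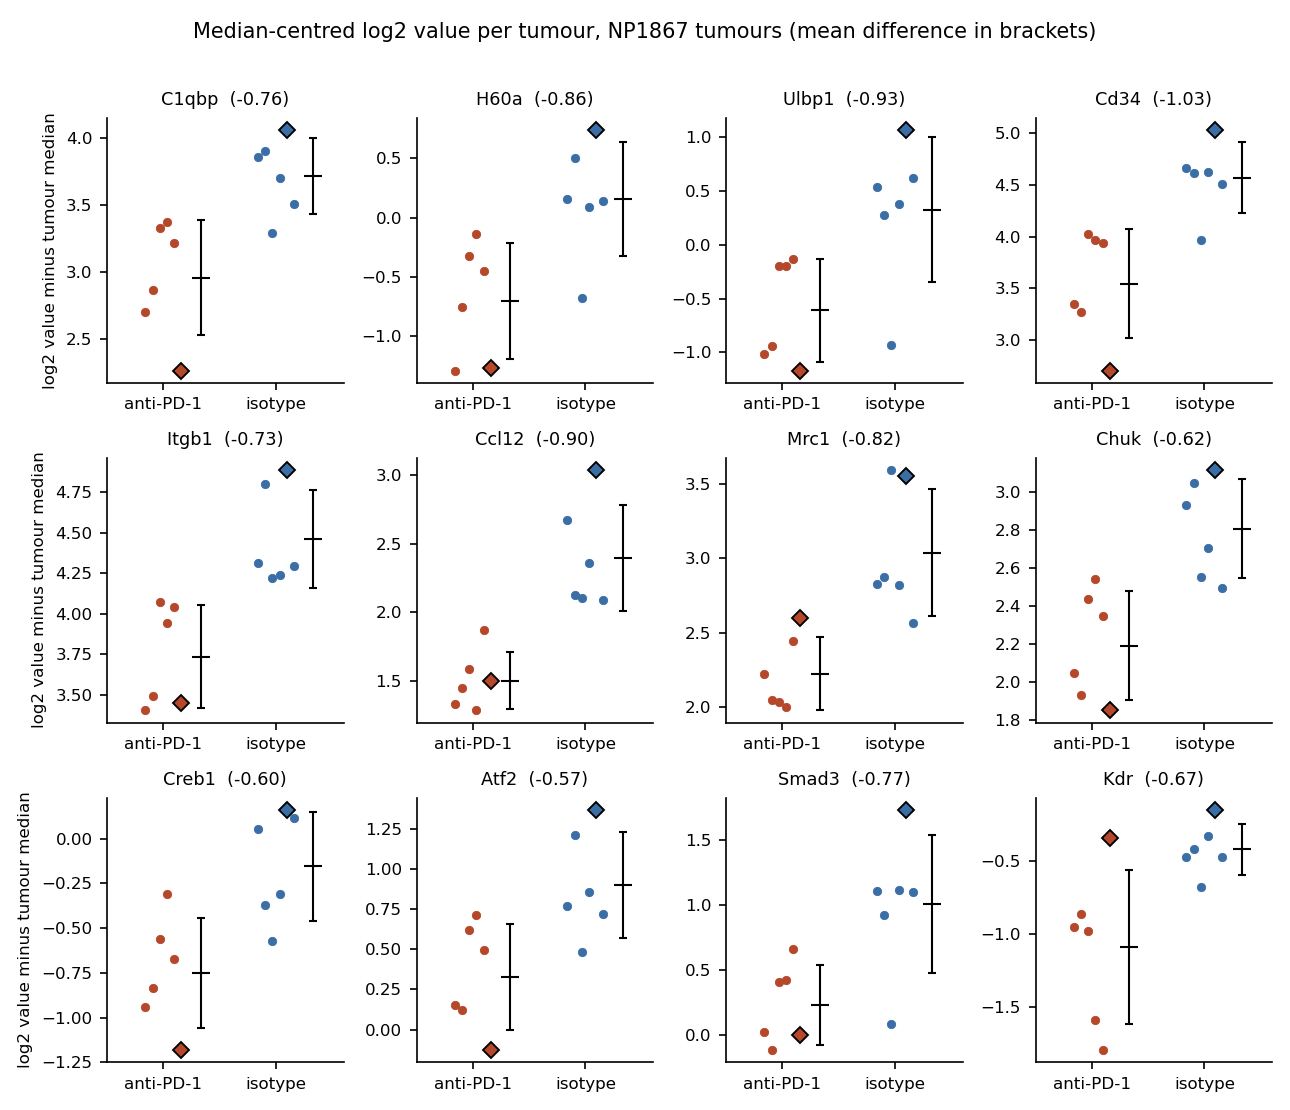
Median-centred log2 values (vertical, a separate axis per gene) of 12 genes that fell on this scale, in the 6 anti-PD-1 tumours (red, left) and the 6 isotype tumours (blue, right), with mean ± SD in black. Diamonds mark anti-PD-1 tumour 78 and isotype tumour 57, which is the highest of all in 11 of the 12 genes; in Itgb1 and Ccl12 the groups do not overlap.

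Cd34, a sialomucin of endothelial and progenitor cells that stromal cells also carry, had the largest centred fall among the called genes, at 1.03 ± 0.30 (SE, adjusted p = 0.0298). On the deposited scale its values were 10.71 to 11.50 (median 11.21) under anti-PD-1, all below the 11.70 to 12.19 (median 11.84) of the isotype group. That change was -0.69 with an adjusted p of 0.0662. Other endothelial genes fell after centring by less, the VEGF receptor Kdr by 0.67 (adjusted p = 0.0471) and the adhesion molecule Mcam by 0.66 (adjusted p = 0.0355), and Eng changed by 0.79 on the deposited scale (adjusted p = 0.0695). The summed level of 6 endothelial markers lay at 414 to 1608 under anti-PD-1 and 419 to 1302 under isotype.

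Itgb1, the integrin beta-1 chain that binds matrix, had centred values of 3.40 to 4.07 (median 3.72) under anti-PD-1 and 4.22 to 4.89 (median 4.30) under isotype. It fell by 0.73 ± 0.19 (SE, adjusted p = 0.0209) after centring and was not called on the deposited scale (-0.38, adjusted p = 0.142). The leukocyte integrin chains Itgal and Itgb2 rose on the deposited scale by 0.95 and 1.01 (adjusted p = 0.0221 and 0.0184). After centring Itgal was called (0.61, adjusted p = 0.0355) and Itgb2 was not (0.67, adjusted p = 0.0526). Without isotype tumour 57 neither was called on the deposited scale (adjusted p = 0.0702 and 0.0615). Ccl12, a monocyte-attracting chemokine of mice, had centred values of 1.28 to 1.87 (median 1.47) under anti-PD-1 and 2.09 to 3.04 (median 2.24) under isotype. It fell by 0.90 ± 0.23 (SE, adjusted p = 0.0209), and Mrc1, the mannose receptor of alternatively activated macrophages, by 0.82 (adjusted p = 0.0266). With isotype tumour 57 left out the centred changes were -0.64 for Itgb1, -0.77 for Ccl12 and -0.72 for Mrc1 (adjusted p = 0.0746, 0.0746 and 0.0881).

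In the NF-kB family the 2 scales called different members. Rel, Tnf and Tnfaip3 rose on the deposited scale by 0.60 to 0.80 and were not called after centring, while Chuk, Tab1 and Traf6 fell after centring. Rel, a subunit induced in activated lymphocytes, had 6.89 to 7.63 under anti-PD-1 and 6.20 to 6.90 under isotype, a rise of 0.60 (adjusted p = 0.0195). Chuk, the kinase IKK-alpha, had centred values of 1.85 to 2.54 under anti-PD-1 and 2.50 to 3.12 under isotype, with 1 tumour of each group in the overlap, and fell by 0.62 ± 0.15 (SE, adjusted p = 0.0209). Its deposited change was -0.28 (adjusted p = 0.142). Spn, the sialophorin CD43 of leukocytes, was the 1 gene that rose on the deposited scale (0.34, adjusted p = 0.047) with a centred change below 0 (-0.01).

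Atf2 and Creb1, transcription factors that kinases switch on, fell after centring by 0.57 and 0.60 (adjusted p = 0.0266 and 0.0298). Smad3 and Smad4, which carry TGF-beta signals to the nucleus, fell by 0.77 and 0.64 (adjusted p = 0.0285 and 0.0377). Hmgb1, an abundant chromatin protein, fell by 0.63 (adjusted p = 0.0298), Bmi1, a Polycomb protein of stem cells, by 0.75 (adjusted p = 0.0298), and the transferrin receptor Tfrc by 0.72 (adjusted p = 0.0351). None of these 7 genes was called on the deposited scale, where their changes ran from -0.43 to -0.23.

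Read across tumours, the 40 falls did not separate the groups by a wide step. Their mean centred value was 0.71 to 0.78 in anti-PD-1 tumours 30, 45 and 78 and 1.10 to 1.21 in anti-PD-1 tumours 48, 50 and 67, against 1.23 in isotype tumour 47 and 1.496 to 2.00 in the other isotype tumours. The mean deposited value of the 72 rises ran the other way, at 8.30 to 8.66 in anti-PD-1 tumours 30, 45 and 78, 7.68 to 7.81 in 48, 50 and 67, 7.65 in isotype tumour 47 and 6.33 to 7.15 in the other isotype tumours. These genes were chosen for their difference between the groups, so the order is a description. In deposited values the 40 falls averaged 8.53 to 8.72 under anti-PD-1 and 8.62 to 9.31 under isotype, an overlap that centring removed.

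Markers of cell types in the sections were summed per tumour, and their part in these results was not tested. Some sums hold genes already called as rises, so they are not separate evidence. These are Cd3d, Cd3e, Cd3g and Cd8a for T cells, Tpsab1 and Cma1 for mast cells, Xcr1 for dendritic cells and Csf3r for neutrophils. Summed levels were higher in anti-PD-1 tumours by the median for T cells (718 against 353 under isotype), B cells (130.3 against 60.3), NK cells (745 against 427), dendritic cells (178 against 83.9), neutrophils (575 against 257) and mast cells (882 against 382). The groups overlapped in each of these sums. NK cell sums ran from 517 to 1002 under anti-PD-1 and from 276 to 754 under isotype. Neutrophil sums ran from 318 to 1543 and from 128 to 1244. The sums rest on deposited values without centring, and 1 of the 6 B cell markers passed the level filter. Macrophage markers had medians of 4805 under anti-PD-1 and 3725 under isotype, and endothelial markers 761 and 726. Carcinoma cell markers, with 3 of 6 listed genes on the panel, had medians of 230 under anti-PD-1 and 248.6 under isotype, and neither of the 2 tested was called. Fibroblast markers ran from 8307 to 68317 under anti-PD-1 and from 3076 to 49576 under isotype. No marker list was at or near 0 throughout, and the panel carries no erythrocyte, muscle or skin markers of those listed. Ptprc itself changed by 0.54 ± 0.28 (SE, adjusted p = 0.159), at 8.92 to 10.23 under anti-PD-1 and 7.80 to 9.74 under isotype. With Ptprc as a covariate 16 rises and 0 falls were called on the deposited scale, and 23 rises and 18 falls after centring.

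The response was set against that of the DMSO-cultured tumours, where the same antibody was compared with isotype in 6 tumours each. Some of these were shallow, with 62699 and 90640 recovered counts in DMSO isotype tumours 23 and 6. DMSO anti-PD-1 tumours 37 and 11 had 106186 and 153211, while each NP1867 tumour had 245260 or more. The comparison with DMSO tumours carries that limit. The difference in response was called for 0 of 600 genes on either scale (0%), with 11 and 13 genes at an unadjusted p below 0.05 and lowest adjusted p values of 0.995 and 0.999, and limma-voom on the recovered counts also called 0. So no change above can be called particular to NP1867-cultured tumours. In DMSO tumours 0 genes were called on the deposited scale and 1 after centring. H2-Eb1 changed by 2.42 in NP1867 tumours and by 1.49 in DMSO tumours, Slamf7 by 1.61 and 0.83, Slc11a1 by 1.42 and 0.89, and Cd8a by 1.39 and 0.59. The family median of class II genes was 1.49 in NP1867 tumours and 0.93 in DMSO tumours, and the 40 relative falls had deposited medians of -0.28 and -0.23. The lowest unadjusted p values for the difference were those of Lilra5, with changes of 0.54 in NP1867 and -0.69 in DMSO tumours, and Il12rb1, with 1.23 in NP1867 and 0.07 in DMSO tumours (limma, adjusted p = 0.995 for both).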

How the data were processed

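RNA of 24 paraffin-embedded CT26 tumours was hybridised to a NanoString nCounter panel of mouse immune and cancer genes, which counts labelled probes without amplification. The authors deposited 1 table of log2 values for 750 genes; the steps behind its normalisation are not given in the sources used here. Each linear value was a whole count multiplied by 1 factor per tumour within 0.05 of a count, for 100% of values, and the counts recovered in this way were used for depth and for limma-voom. Counting error is smallest where totals are highest, and 6 tumours per group limit the precision of every change.

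Groups came from the sample titles. Genes with a mean log2 of at least log2 of 20 over 24 tumours were tested (600), and 150 were left out. A linear model with 4 group means was fitted with limma 3.58.1 (R 4.3.3) to all 24 tumours, with an empirical Bayes trend, two-sided p-values and Benjamini-Hochberg adjustment over 600 genes at 0.05. The fit was run on deposited values and after subtracting each tumour's median over tested genes, and it was tested on simulated data. Single values per tumour were compared by exact permutation over 924 assignments. Changes are anti-PD-1 minus isotype.

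The comparison, the 39 gene families, the cell markers and the alternatives were chosen with earlier results of these data known, and gene families share members. Genes were named by a rule: on the deposited scale the 15 rises with the lowest p and all falls, on the centred scale the 15 largest rises and 20 largest falls, up to 6 called and 3 uncalled members of each family, 7 immune genes in every case, any gene with opposite signs on the 2 scales, and the 5 lowest p for the difference in response. Ecsit, Mertk, Mfge8, Prf1, Tnfrsf14, Traf6, Trem2 and the untested genes were named outside it after their values were seen.

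Alternatives were quantile normalisation, no filter, a filter at 50, only the 12 NP1867 tumours, a robust prior, no trend, array weights, limma-voom, 10 added before log2, Ptprc or the log2 factor as covariate, no tumours under 200000 counts, 3 other centrings and each tumour left out. Promoters are RefSeq's for GRCm38.p6; names of 736 genes matched its table directly, 8 as older symbols and 6 not.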

Additional observations from a re-analysis of the deposited data

Results flagged for a closer look

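Some tumours lay far from the others of their group, with a Dixon ratio above the 95% critical value for 6 values. Of 284 gene groups examined, 9 did, whereas chance marks about 1 in 20. Isotype tumour 57 was low for Psmb9 (8.21, next 9.58) and H2-D1 (12.9, next 13.35) and high for Mfge8 after centring (0.13, next -0.36). Isotype tumour 26 was high for C1qbp (11.47, next 11.1) and low for Tyk2 (4.81, next 5.89). Isotype tumour 47 was high for Tfeb (7.29, next 6.4) and low for Nup107 after centring (1.46, next 1.99). Among anti-PD-1 tumours, number 67 was low for Foxp3 (2.04, next 4.42), which is the level of 3 counts in that tumour, and number 48 was low for Tnfaip3 (7.32, next 7.85).

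Lilra5 moved one way in every NP1867 anti-PD-1 tumour and the other way in every DMSO anti-PD-1 tumour, measured from the isotype means. The difference in its response was 1.23 ± 0.40 on the log2 scale (SE, limma adjusted p = 0.995), so it does not pass the correction.

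Among the 150 genes below the level filter, 4 had all anti-PD-1 tumours above all isotype tumours and 0 the reverse. The lowest anti-PD-1 and highest isotype log2 values were 3.94 and 3.74 for Cd160, a receptor of NK and CD8 T cells, 4.19 and 4.15 for Cd8b1, the second CD8 chain, 3.72 and 3.64 for the class II loading chain H2-DMb1, and 3.81 and 3.4 for myeloperoxidase (Mpo).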

How the results depend on the processing

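Against 74 genes called on the deposited scale, array weights gave 267, the log2 factor as covariate 122, no tumours under 200000 counts 139 and Ptprc as covariate 16. Against 78 on the centred scale they gave 192, 102, 143 and 41, and centring on the median of all 750 genes gave 48. With single tumours left out the counts ran from 14 to 198 and from 2 to 142. The totals under the other alternatives stayed within 1.5 times of either count, but not their makeup. Quantile normalisation gave 23 rises and 32 falls, sharing 25 of the 74 and 50 of the 78 genes, and centring on cell cycle, kinase, apoptosis and trafficking genes gave 85 rises and 2 falls, sharing 40 of the 78. The 12-tumour fit shared 55 of the 74 and 64 of the 78. The cause of these shifts was not tested. The difference in response gave 0 calls under every alternative run; the 12-tumour fit cannot give it. The difference in tumour medians was 0.42 with means in place of medians (exact permutation p = 0.0411) and 0.26 to 0.44 with single tumours left out, with p = 0.0281 without isotype tumour 47. Ecsit, a rise of 0.58 on the deposited scale, was -0.0249 under quantile normalisation. No paired analysis was possible because the groups share fewer than 2 tumour numbers. Low counts limit the genes near the filter, such as Ifng.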
